A study of Mus musculus with 3 samples.

Results

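A set of 8 genes of Schwann cells and their myelin was followed on arrays of cultured mouse sensory ganglion cells: Mbp, Pmp22, Pmp2, Mag, Prx, Egr2, Sox10 and Gldn. They were chosen by symbol, with earlier results of these data known. Each gene was read from the brightest probe set that the array annotation gives to that symbol alone. Of the 8 genes 7 had such a probe set, 1 each, out of 30142 genes named in this way, and Prx, which encodes the myelin scaffold protein periaxin, had none and is not analysed here. Primary dorsal root ganglion neurons of male ICR mice aged 8 to 10 weeks, an outbred strain, had been cultured for 72 hours in 1 of 3 media. The first held DMEM, the B27 supplement, 1 μg/ml recombinant SEMA3E and 1 μg/ml of an IgG that blocks SEMA3E, the second held the same SEMA3E without the IgG, and the control medium held DMEM and B27 only. SEMA3E is a secreted semaphorin that acts through plexin D1. There is 1 array per medium, so the differences given here carry no error and no test, and precision is limited by the number of arrays. A control IgG that does not bind SEMA3E was not analysed here, so an effect of IgG as such cannot be told apart from blocking.

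Schwann cells wrap peripheral axons, and those around large axons make compact myelin. Their identity depends on the transcription factor Sox10, which together with other factors switches on Egr2 (Krox20), the regulator that drives the genes of myelin proteins and lipids. Adult Schwann cells that lose contact with axons switch these genes down and take on an immature or repair state. Ganglion cultures hold neurons together with Schwann cells, satellite glia, fibroblasts and macrophages, so the RNA of each array is a mixture, and fewer cells of a type cannot be told apart from less RNA per cell.

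The values are summarised probe set intensities, given here in intensity units or as log2(intensity + 1). A gene was taken as above background when its mean over the arrays reached 43.7 units (5.48 on the log2 scale), the 95th percentile of 492 vomeronasal receptor genes, and 17653 genes did. The medians of the arrays lay between 44.5 and 45.0 units. Of these 17653 genes, 74.9% held the same value in all 3 arrays. Identical values do not show that the RNA was equal. Values were also shared between probe sets: the 65956 probe sets of an array held between 25830 and 26720 distinct values. For the 7 genes the nearest different value on the same array lay at most 0.00615 log2 units away, the widest step being that of Pmp22 in control medium. This spacing between probe sets of 1 array does not show why a gene held the same value across arrays. How probes were summarised is not given, so whether the summary itself made values identical cannot be told here.

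Between the media the array values of 2 of the 7 genes differed, in opposite directions, and those of the other 5 did not. Pmp2, which encodes a fatty acid-binding protein of peripheral myelin, was lower with SEMA3E and IgG than in control medium, and Gldn, which encodes the nodal adhesion protein gliomedin, was higher. In the SEMA3E array both lay between these levels. Pmp22, Mbp, Mag, Egr2 and Sox10 held 1 value each in all 3 arrays.

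**Figure D1:**
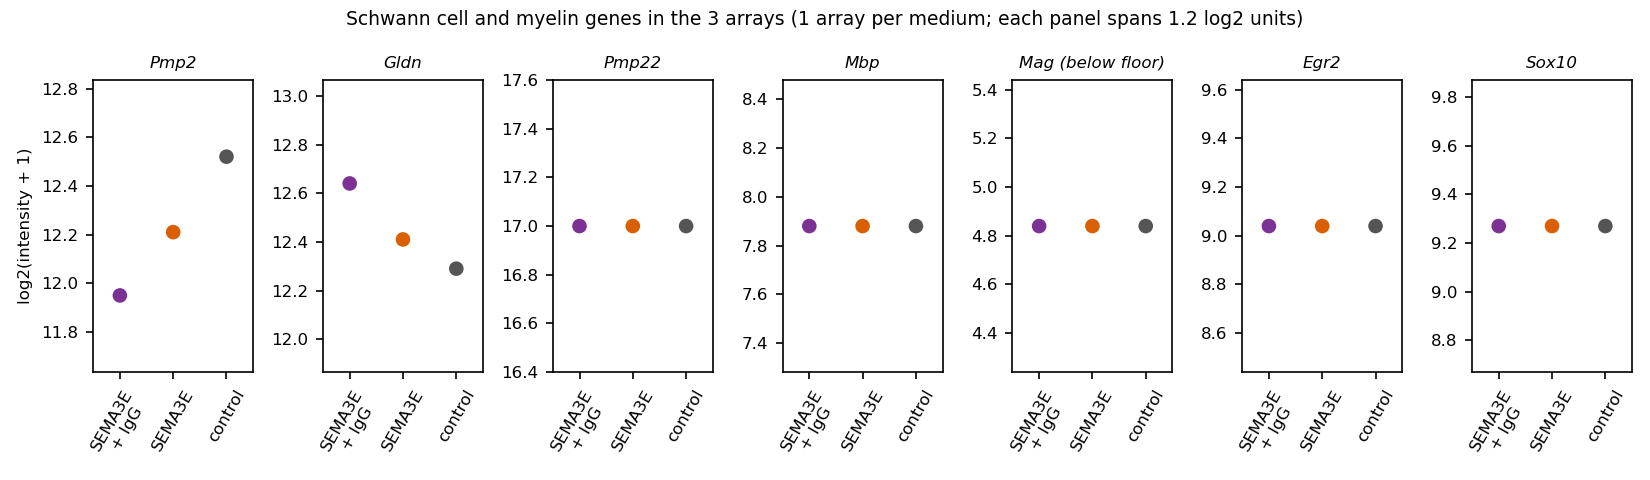
Level of each of the 7 measured Schwann cell and myelin genes, as log2(intensity + 1), in the arrays with SEMA3E and blocking IgG, with SEMA3E, and with control medium; each point is 1 array and each panel spans the same range. Pmp2 steps up towards control (11.95, 12.21 and 12.52), Gldn steps down (12.64, 12.41 and 12.29), and the 5 other genes hold 1 level.

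Pmp2 (probe set TC0300003223.mm.1) encodes myelin P2, also called FABP8, a small protein that binds fatty acids and sits on the cytoplasmic face of myelin membranes. Its intensity was 3958 units with SEMA3E and IgG, 4744 with SEMA3E and 5868 in control medium. The array with both SEMA3E and IgG was the lowest and the control array the highest, so adding the IgG went with a level further from control. The level with SEMA3E and IgG was 0.675 times that of control (log2 difference −0.57), and the level with SEMA3E alone was 0.808 times that of control (−0.31). Between SEMA3E with IgG and SEMA3E alone the ratio was 0.834 (−0.26). The 3 differences come from 3 arrays and share them, so they are not independent of each other.

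Gldn (probe set TC0900000655.mm.1) encodes gliomedin, which Schwann cells place at the edge of forming nodes of Ranvier, where it binds NrCAM and neurofascin of the axon and gathers sodium channels. Its intensity was 6403 units with SEMA3E and IgG, 5448 with SEMA3E and 5004 in control medium. Here the array with IgG was the highest and the control array the lowest. Against control, Gldn was higher by 28.0% with SEMA3E and IgG (log2 difference 0.36) and by 8.9% with SEMA3E alone (0.12), and against SEMA3E alone it was higher by 17.5% with the IgG (0.23).

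At a threshold of a ratio of 5 to 4 in either direction (0.32 on the log2 scale), 2 of the 6 genes above background were past it between SEMA3E with IgG and control, Gldn higher and Pmp2 lower, where 0.884% of all 17653 genes were, 0.34% higher and 0.544% lower. At 1.5-fold 0 of 6 were, against 0.204% of all genes. The genes were chosen with earlier results of these data known, so setting these counts beside the shares tests nothing. Between SEMA3E and control 0 of 6 reached the lower threshold (0.731% of all genes) or 1.5-fold (0.17%), with Pmp2 just short of the first. Between SEMA3E with IgG and SEMA3E 0 of 6 did as well, against 0.782% and 0.136% of all genes. By position among the 17653 genes, Pmp2 was the 27th lowest and Gldn the 44th highest between SEMA3E with IgG and control. Between SEMA3E and control Pmp2 was the 83rd lowest and Gldn the 298th highest, and between SEMA3E with IgG and SEMA3E they were the 105th lowest and the 210th highest. Of the 2724 genes with a mean of at least 11 on the log2 scale, where both genes lie, 50.1% held 1 value in all 3 arrays. Past the ratio of 5 to 4 were 1.91% of these bright genes between SEMA3E with IgG and control, 0.734% between SEMA3E and control and 0.954% between SEMA3E with IgG and SEMA3E. Past 1.5-fold were 0.257%, 0.184% and 0.11% of them in the same comparisons. The median difference of the 6 genes was 0 in each comparison, as was that of all genes, and 4 of the 6 held identical values in all 3 arrays, a share near that of all genes.

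**Figure D2:**
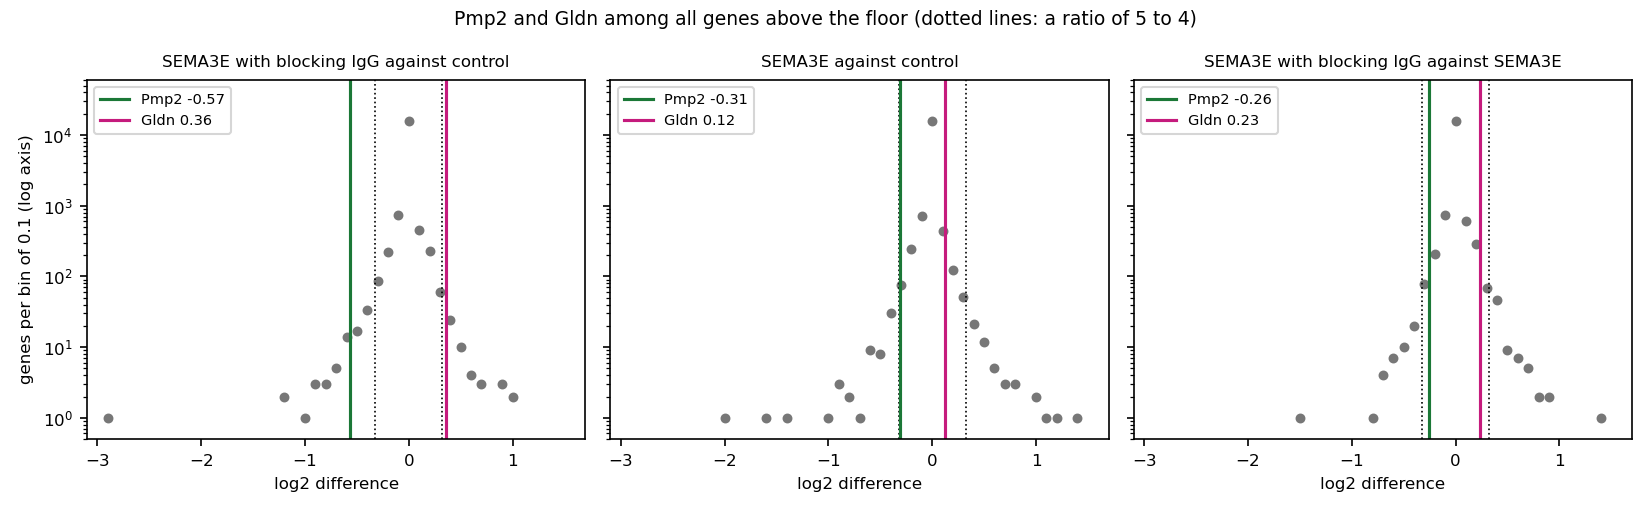
Number of genes above background (log axis) in bins of 0.1 of the log2 difference, in 3 comparisons; vertical lines mark Pmp2 and Gldn, and dotted lines mark a ratio of 5 to 4 in each direction. Both genes lie past the dotted lines between SEMA3E with IgG and control (−0.57 and 0.36) and inside them in the other comparisons.

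The structural myelin genes apart from Pmp2 held identical values in all 3 arrays. Pmp22 (TC1100000822.mm.1), which encodes a membrane protein of compact myelin whose altered dosage causes inherited neuropathy, lay at 130696 units (17.00 on the log2 scale) in each of the 3 arrays, and no other probe set of an array held that value. Mbp (TC1800000869.mm.1), the basic protein that draws the cytoplasmic faces of myelin together, lay at 235 units (7.88) throughout, a value that 19 or 20 other probe sets of each array held. Mag (TC0700002780.mm.1), an adhesion protein of the innermost myelin layer that faces the axon, stood at 27.7 units (4.84) in all 3 arrays. That is below the background level of 43.7 units, and 483 to 494 other probe sets of each array held the same value, so Mag was not above background in any medium.

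The regulators held identical values as well. Egr2 (TC1000000636.mm.1) held 527 units (9.04 on the log2 scale) in each array, shared with 3 other probe sets, and Sox10 (TC1500001863.mm.1) held 617 units (9.27), shared with 1 other. Both lay above background in every medium.

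Promoter sequences of 300 bases, from 250 before to 50 after a transcript start, were taken from RefSeq (GRCm38.p6). Windows on the chromosome that carries Mbp were left out. Used here were 13 windows, for 4 of the 7 genes (Mag, Gldn, Egr2 and Pmp22). They were searched on both strands for the cores ACAAAG and ACAATG, which SOX proteins bind, and for GCGNGGGCG, the form of the EGR site, each counted by itself. ACAAAG occurred in 18.7% of 32851 promoters of this length, ACAATG in 12.6% and GCGNGGGCG in 5.55%. Among the windows of these genes ACAAAG was found in 2 overlapping windows of Mag, shown in capitals in the first of them below as its reverse complement, and none of the 3 cores was found in the windows of Gldn, Egr2 and Pmp22. The Gldn window (chr9:54286236-54286535, plus strand) is shown because Gldn is the gene with a difference for which one was at hand, and the Mag window (chr7:30914814-30915113, minus strand) because it holds the core. A match or its absence in these windows says nothing about binding in these cells.
Gldn: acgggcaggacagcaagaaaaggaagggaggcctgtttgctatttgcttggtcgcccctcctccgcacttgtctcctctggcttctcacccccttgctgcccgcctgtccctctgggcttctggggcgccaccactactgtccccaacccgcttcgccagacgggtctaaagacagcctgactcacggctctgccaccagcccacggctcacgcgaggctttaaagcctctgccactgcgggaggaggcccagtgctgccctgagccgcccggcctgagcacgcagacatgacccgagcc
Mag: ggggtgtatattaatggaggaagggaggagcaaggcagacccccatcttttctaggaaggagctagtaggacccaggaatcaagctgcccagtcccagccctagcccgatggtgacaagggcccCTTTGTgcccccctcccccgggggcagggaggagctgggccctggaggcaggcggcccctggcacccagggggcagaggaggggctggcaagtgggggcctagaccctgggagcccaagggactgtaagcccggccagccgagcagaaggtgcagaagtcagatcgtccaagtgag

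Of a list of 20 other genes of myelin and its lipids 18 were measured and 13 lay above background. Of the 13 genes Cmtm5, Mal and Arhgef10 differed between arrays, and the other 10 held 1 value in all 3 arrays, a share near the 74.9% of all genes. Cldn19, Gjb1, Pllp, Mpzl2 and Sh3tc2 lay below background. Cmtm5, a membrane protein gene of myelinating glia, stood at 2090 units with SEMA3E and IgG, 2349 with SEMA3E and 2911 in control medium. Its order was that of Pmp2, with log2 differences from control of −0.48 with SEMA3E and IgG and −0.31 with SEMA3E. Mal, which encodes a proteolipid of myelin, had 4638, 4658 and 4638 units in these arrays, and Arhgef10, the gene of a guanine nucleotide exchange factor, had 235, 230 and 235 units. Between SEMA3E with IgG and control 1 of the 13 was lower (Cmtm5) and 0 higher, where 11.4% of all genes were lower and 7.59% higher by any amount.

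Of 17 listed genes that steer myelination and lay above background 12 were identical throughout, a share near the 74.9% of all genes. Among them were Erbb3 (8.65 on the log2 scale), the Schwann cell receptor of neuregulin, and Pou3f1 (5.80), a factor of the promyelinating stage. Nrg1, the neuregulin gene, had 1475 units with SEMA3E and IgG, 1397 with SEMA3E and 1475 in control medium. Adgrg6, an adhesion receptor needed to begin myelination, had 2050, 1991 and 1991 units in the same order. The probe sets used for the histone deacetylase genes Hdac1 and Hdac2 had 377 and 6936 units with SEMA3E and IgG, 365 and 7049 with SEMA3E, and 377 and 6938 in control medium. For Nrg1 and Hdac1 these values are those of the brighter of 2 probe sets, and the other held 1 value in all arrays. The probe sets of Hdac1 are numbered for different chromosomes (TC1700001186.mm.1, used here, and TC0400003599.mm.1). Which of them reads Hdac1 itself was not tested, and the count of identical regulators depends on the choice. Between SEMA3E with IgG and control 1 of the 17 regulators was higher and 1 lower, where 7.59% of all genes were higher and 11.4% lower by any amount.

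Of 16 listed genes of the immature and repair state above background 10 were identical in all 3 arrays, where 74.9% of all genes were. The 10 included Jun (10.89 on the log2 scale), which drives the repair state, and Sox2 (8.19), which marks immature Schwann cells. Between SEMA3E with IgG and control 1 of the 16 was higher and 3 lower, against the same shares of all genes as for the regulators. Between SEMA3E and control 0 were higher and 6 lower, and none of the 6 reached a ratio of 5 to 4. By any amount 6.21% of all genes were higher and 12.3% lower in this comparison. Of the genes with a mean of at least 11 on the log2 scale 7.42% were higher and 29.4% lower. Gap43, L1cam, Cdh2 and S100b of the 6 lay in that range. Ngfr, the low-affinity neurotrophin receptor gene, had 952 units with SEMA3E and IgG, 868 with SEMA3E and 952 in control medium, and the adhesion gene L1cam had 5753, 5070 and 5625 units, so in both the SEMA3E array was the lowest. Sensory neurons also express both genes. S100b, a calcium-binding protein gene of Schwann cells and other glia, ran in the order of Pmp2, with 5732, 5984 and 6254 units and a log2 difference of −0.13 between SEMA3E with IgG and control. Dhh, the hedgehog ligand of Schwann cells, had 765, 743 and 773 units.

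The genes of NrCAM and neurofascin, which gliomedin binds, held identical values in the 3 arrays, unlike Gldn. Nrcam lay at 11.36 and Nfasc at 7.42 on the log2 scale. Cntnap1, the gene of the paranodal protein Caspr, lay at 6.55 in all 3 arrays. Of the 20 listed genes of the node and paranode, all above background, 15 were identical throughout, a share near the 74.9% of all genes. Lamc1, a laminin chain gene of the Schwann cell basal lamina, had 1398 units with SEMA3E and IgG, 1151 with SEMA3E and 1398 in control medium. Cadm4, an adhesion gene through which Schwann cells hold the axon, had 20089, 17498 and 19550 units. In both the SEMA3E array was the lowest, which was not the order of Gldn. Cntnap2 (916, 884 and 884 units) and the tetraspanin gene Cd9 (36330, 37005 and 37005) differed from control only in the array with IgG, by log2 differences of 0.05 and −0.03.

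**Figure D3:**
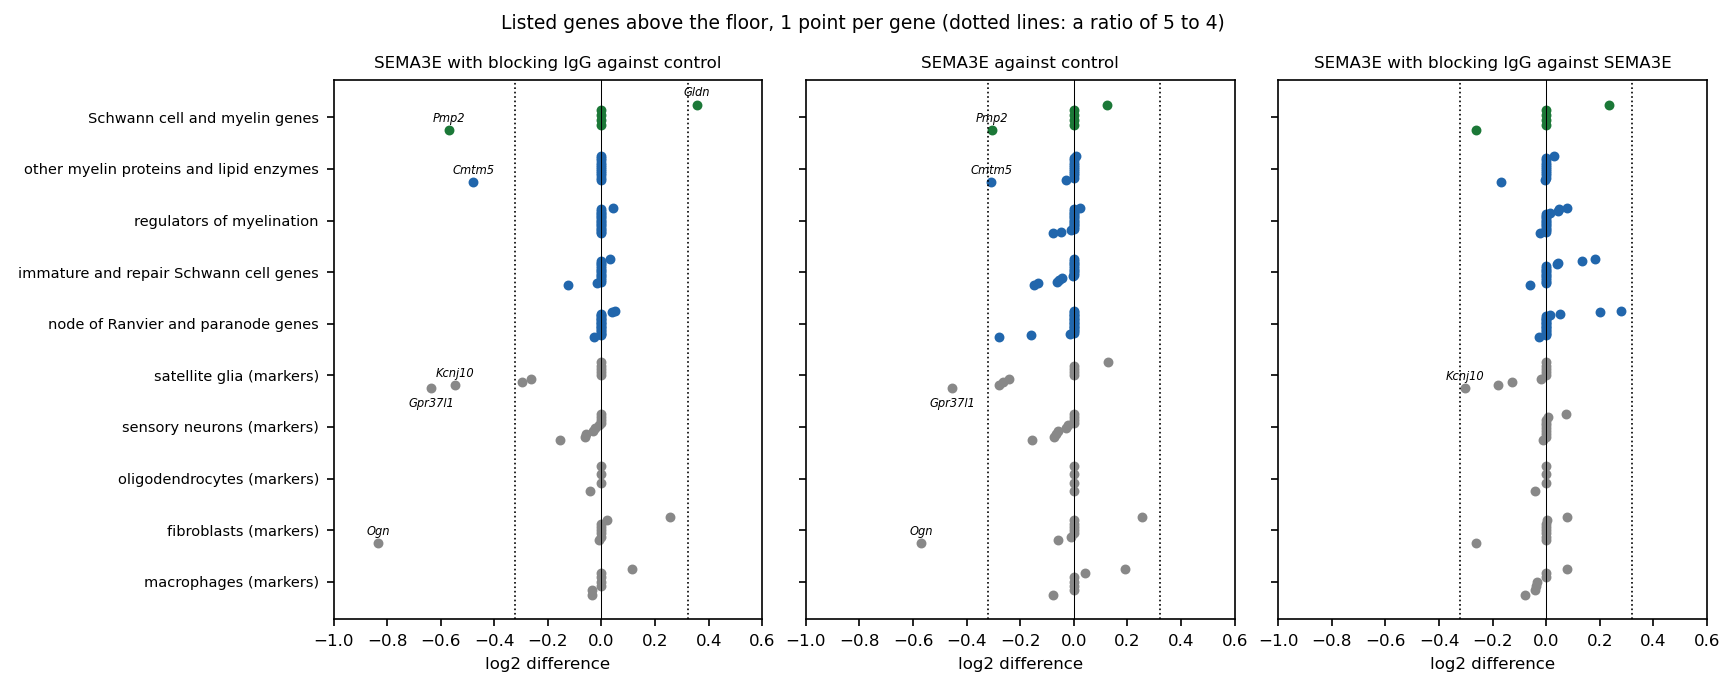
Log2 differences, in 3 comparisons, of the genes above background of the plotted lists (the Schwann cell and myelin genes, the further lists of myelin, regulator, immature and repair, and node genes, and the markers of 5 other cell types), 1 point per gene, with genes at least 0.3 from 0 named and dotted lines at a ratio of 5 to 4. Most points lie at 0, and the plotted genes furthest below 0 between SEMA3E with IgG and control are Ogn (−0.83), Gpr37l1 (−0.64), Pmp2 (−0.57), Kcnj10 (−0.54) and Cmtm5 (−0.48).

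Markers of other cells in the cultures were measured beside these genes. For each of the lists that follow, the shares to set beside its counts between SEMA3E with IgG and control are those of all genes, 11.4% lower and 7.59% higher by any amount. Of 9 satellite glial markers, all above background, 4 were lower and 0 higher between SEMA3E with IgG and control, and their summed intensity was 9482 units with SEMA3E and IgG, 9980 with SEMA3E and 10368 in control medium. Gpr37l1, a glial receptor gene, had 536, 608 and 833 units and Kcnj10, the potassium channel gene of satellite glia, had 273, 337 and 399 units, both in the order of Pmp2. Of the same list Fbln5 had log2 differences of −0.30 and −0.28 and Atp1b2 −0.26 and −0.26 from control, with IgG and without it. Fabp7, Apoe, Slc1a3, Gja1 and Hey2 were identical between SEMA3E with IgG and control. None of these markers was at background, and their part in the difference of Pmp2 was not tested.

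Of 10 neuronal markers 6 were lower and 0 higher between SEMA3E with IgG and control, by at most 0.16 on the log2 scale (Tubb3). By any amount 11.4% of all genes were lower and 7.59% higher in this comparison. Of the genes with a mean of at least 11 these shares were 26.4% and 13.7%. Among the 6 lower markers Rbfox3, Nefm and Elavl4 lay below that mean. The sums of the neuronal markers were 365167, 364666 and 370620 units. Of 9 fibroblast markers 2 were higher and 2 lower, among them Ogn (861, 1034 and 1536 units) and Mgp (3796, 3793 and 3182 units), and their sums were 18904, 18953 and 18936 units. Of 10 macrophage markers 7 lay above background, 1 higher and 2 lower, with sums of 4316, 4402 and 4145 units, while Csf1r, Mrc1 and Fcgr1 lay below it. Of 10 oligodendrocyte markers 6 lay below background (Mog, Mobp, Opalin, Ermn, Hapln2 and Mag), and the 4 above it summed to 866, 887 and 887 units. The part of neurons, fibroblasts and macrophages in the differences of Pmp2 and Gldn was not tested.

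The genes whose pair of differences from control lay nearest to those of Pmp2 and Gldn were looked up among 11993 genes above background, leaving out predicted genes, clone names, small RNAs and pseudogenes. The measure was the Euclidean distance between the differences of SEMA3E with IgG and of SEMA3E, over 3 arrays. Nearest to Pmp2 were Ifitm3, an interferon-induced membrane protein gene (−0.57 with SEMA3E and IgG and −0.32 with SEMA3E, distance 0.02), Olfml1 (−0.56 and −0.28, distance 0.03) and Clec2l (−0.54 and −0.36, distance 0.06). Nearest to Gldn were Plxnd1, the gene of the SEMA3E receptor plexin D1 (0.35 and 0.14, distance 0.01), the collagen gene Col12a1 (0.33 and 0.14, distance 0.03) and the macrophage elastase gene Mmp12 (0.33 and 0.17, distance 0.06). With 2 differences per gene such a match is a description of 3 arrays.

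**Figure D4:**
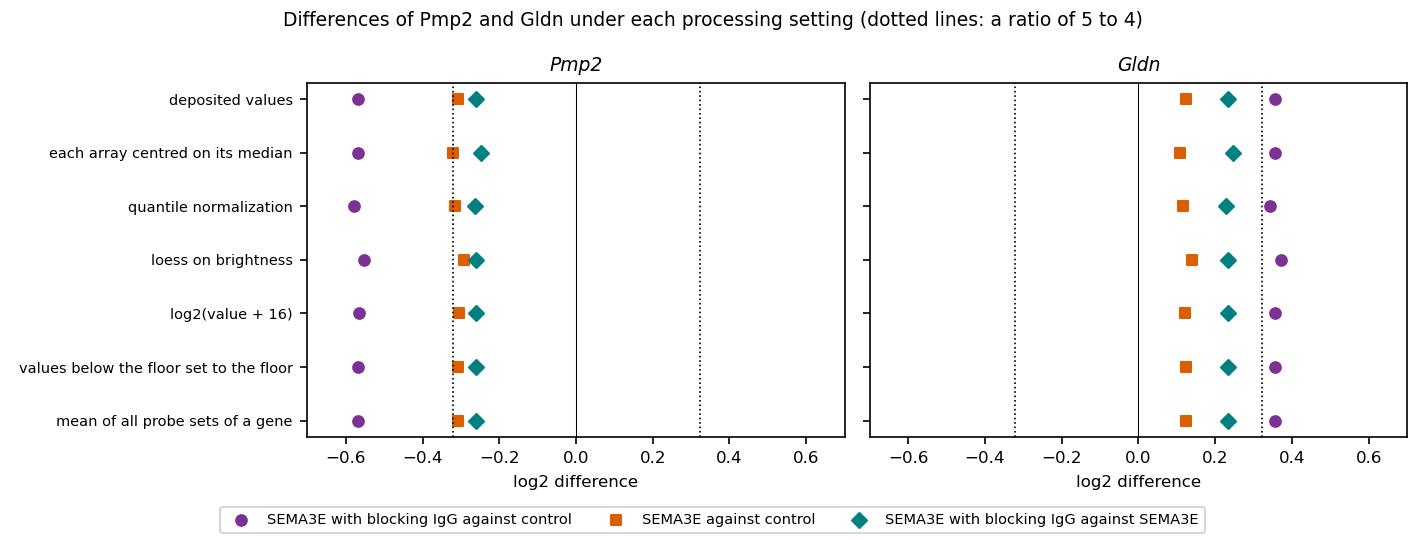
Log2 differences of Pmp2 and Gldn in 3 comparisons under the deposited values and 6 other ways of scaling, flooring or averaging them, with dotted lines at a ratio of 5 to 4. Each symbol stays on its side of 0 and of the dotted lines; Pmp2 between SEMA3E and control ranges from −0.32 to −0.29.

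Under all 6 other settings Pmp2 and Gldn kept the direction of each difference and their side of the ratio of 5 to 4. Averaging probe sets and setting values to the floor could not alter either gene. Between SEMA3E with IgG and control Pmp2 ranged from −0.58 to −0.55 and Gldn from 0.34 to 0.37, as the plot of the settings shows.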

How the data were processed

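RNA of 3 cultures, 1 per medium, was isolated with TRIzol, purified with a Promega kit and labelled by the GeneChip WT Pico method, per the labels' protocols. The authors deposited linear intensities per probe set, for which the submitters' processing notes name Affymetrix Expression Console. Not given in the sources used here are its version, how probes were summarised and normalized, and the genome build. Log2(value + 1) was computed here, and a difference is the log2 value of one array minus that of another.

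Genes were named by the platform annotation: 30604 probe sets had 1 symbol (827 updated through gene numbers with a RefSeq table, GRCm38.p6), 2146 several and 33206 none. The brightest probe set of a gene was used. The 8 genes and all lists were chosen with earlier results of these data known. The 4 genes furthest apart in each of 4 further lists were named (fewer where fewer differed), together with 12 fixed genes where measured, and the 3 nearest genes of each member past a ratio of 5 to 4. Marker genes named beside the counts of their lists were chosen after their values were seen. Counting was tested on simulated data. Alternatives were centring, quantile normalization, loess (span 0.3), an offset of 16, values set to the floor, no floor, and the mean of all probe sets. No test was possible with 1 array per medium. Tools were Python 3.11.15, numpy 2.4.6, pandas 2.3.3, statsmodels 0.14.6 and matplotlib 3.10.9.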

Additional observations from a re-analysis of the deposited data

How the results depend on the processing

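The number of Schwann cell and myelin genes past a ratio of 5 to 4 and past 1.5-fold, in 3 comparisons, was the same as with the deposited values under all 7 alternatives (42 of 42 counts): centring, quantile normalization, loess, an offset of 16, values set to the floor, no floor, and the mean of all probe sets. The nearest approach to a threshold was that of Pmp2 between SEMA3E and control after centring, at −0.3213 where the threshold is 0.3219 in size. Pmp22, Mbp, Mag, Egr2 and Sox10, identical in the deposited values, took on small differences when the arrays were rescaled, between −0.0625 (Pmp22, SEMA3E with IgG against SEMA3E) and 0.0318 (Pmp22, SEMA3E against control), both after quantile normalization. Each of the 7 genes has 1 probe set, so averaging probe sets could not alter them. Setting values to the floor or using no floor could not alter the counts either. Only Mag lies below the floor, and it held 1 value in all 3 arrays. Equal counts under these settings were therefore fixed in advance and show nothing about robustness. No paired analysis was possible because each medium has 1 array, and for the same reason no replicate could be left out. Without replicates it cannot be said which of these differences exceed the variation between cultures. No value of Mag can be read below background.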

Other observations

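The gene family of Pmp2 was looked at after the values had been seen. Of 13 measured genes of other intracellular fatty acid-binding and retinoid-binding proteins 8 lay above background. Between SEMA3E with IgG and control 4 of the 8 were lower and 0 higher. By any amount 11.4% of all genes were lower and 7.59% higher in this comparison. Of the genes with a mean of at least 11 on the log2 scale 26.4% were lower and 13.7% higher. Fabp3, Fabp5 and Crabp1 of the 4 lay in that range. Crabp2, which carries retinoic acid to its nuclear receptors, had 1488 units with SEMA3E and IgG, 2147 with SEMA3E and 2388 in control medium. Crabp1, its relative, had 13764, 17002 and 18439 units. Fabp5 had 10989, 12875 and 12875 units and Fabp3 had 3113, 3524 and 3487 units, so in these genes the array with IgG was the lowest, while a second probe set of Fabp3 held 1 value in all arrays. Fabp7, the satellite glial member, had the same level with SEMA3E and IgG as in control medium and was higher by 0.13 on the log2 scale with SEMA3E. Fabp4 lay at 5.64 in all arrays, and Fabp1, Fabp2, Fabp6, Fabp9 and Fabp12 lay below background.

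Of 11 measured genes that share the olfactomedin domain of gliomedin 8 lay above background, a list also drawn up after the values had been seen. Olfml2a had 390 units with SEMA3E and IgG, 367 with SEMA3E and 364 in control medium, the order of Gldn. Olfml1 had 116, 141 and 171 units, the opposite order, and Olfm1 had 2519, 2567 and 2580 units. The other 5 were identical in all 3 arrays, as were 74.9% of all genes.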
